A study of Mus musculus with 12 samples.

Results

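The genes described are 7 noncoding host genes of small nucleolar RNAs (snoRNAs), Gas5, Snhg1, Snhg3, Snhg5, Snhg6, Snhg8 and Snhg12, out of 38215 genes in the gene count table. They were listed by name as spliced noncoding hosts. The listing rule used no measured value, although earlier results of these data were known. By Ensembl gene ID, 4 of the 7 had a row of counts (Gas5, Snhg3, Snhg5 and Snhg12), and all 4 passed the filter on low counts. Snhg1, Snhg6 and Snhg8 had no row under their IDs and were not analysed here as host genes. GENCODE vM21 types all 7 as noncoding (processed transcript or lincRNA), and each holds at least 1 snoRNA gene on its own strand, 10 in Gas5, 8 in Snhg1, 5 in Snhg12, 2 each in Snhg3 and Snhg5, and 1 each in Snhg6 and Snhg8.

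The cells were RAW264.7, an established mouse macrophage line. They received control siRNA, which targets no gene, or SF3a1 siRNA for 24 hours, and then 20 ng/ml LPS, the bacterial ligand of TLR4, for 4 hours or no LPS. Each siRNA was used in the presence and in the absence of LPS, and the resulting 4 groups had 3 libraries each of polyadenylated RNA, with 12746019 to 41091887 reads assigned to genes per library. All groups were transfected and all cells were of 1 line. By the study's methods each treatment was done in triplicate, so p-values measure the spread between repeat treatments of this line. Sf3a1 itself, the siRNA target, had log2 fold changes with SF3a1 siRNA of -2.73 without LPS and -2.30 with LPS (edgeR's quasi-likelihood test, adjusted p = 1.14e-05 and 1.47e-05), and its groups did not overlap. The 9 macrophage markers examined (Lyz2 the most abundant) were above 0 in every library and summed to between 10043 and 16667 CPM, counts scaled to a common library size. The 10 markers of lymphocytes, epithelium, fibroblasts, endothelium and other cells (Pecam1 the most abundant) summed to between 0.138 and 1.67 CPM a library, and 0 of them passed the filter.

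A snoRNA host gene is transcribed by RNA polymerase II, and its snoRNAs are cut out of the introns after splicing. The snoRNAs guide the methylation, pseudouridylation or cleavage of ribosomal RNA, while the spliced exons are the by-product. The spliced RNAs of Gas5 and the Snhg genes reach ribosomes, carry only short reading frames, and are known to be destroyed by nonsense-mediated decay, the pathway that removes RNAs whose stop codon lies upstream of an exon junction. Many host genes begin transcription at a C inside a run of pyrimidines, the 5' terminal oligopyrimidine tract that ribosomal protein mRNAs also carry. SF3a1 is a subunit of the SF3a complex of the U2 snRNP, which recognizes the branch point of introns, a step in the splicing of nearly all introns.

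The start regions of the host genes are shown because the pyrimidine tract is a known feature of such genes. Each line runs from 10 bases before to 20 bases from the RefSeq start (GRCm38.p6), on the strand of the gene, and capitals mark the unbroken run of C and T that holds a C followed by at least 4 pyrimidines within 5 bases of the start.
Gas5 (chr1:161035156-161035185, +): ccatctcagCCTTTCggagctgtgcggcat
Snhg12 (chr4:132308668-132308697, +): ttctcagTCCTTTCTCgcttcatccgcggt
Snhg8 (chr3:123508317-123508346, −): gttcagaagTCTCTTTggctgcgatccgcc
Snhg3 (chr4:132353667-132353696, −): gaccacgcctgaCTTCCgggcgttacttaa
Snhg5 (chr9:88522878-88522907, −): gcggtgaaccgggctcgttcttttacgacg
Snhg1 (chr19:8723477-8723506, +): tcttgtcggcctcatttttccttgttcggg
The run was found in 4 of 7 RefSeq start windows of these hosts (57.1%), beside 6027 of 32851 RefSeq start windows (18.3%). Snhg5 and Snhg1 gave no match and are printed without capitals. A further RefSeq start of Gas5, upstream of the one shown, also gave no match and is not printed, but is counted among the 7. No start window was at hand for Snhg6. A match describes the letters and shows no use of the site.

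Gas5, the gene named for its rise in growth-arrested cells, spans chr1:161034422-161038539 (+, mm10) and gave the highest level of the 4 hosts, both as CPM and per kilobase of annotated exon (for Snhg5, of the transcript that gives its deposited bins). Per kilobase, its group means were 38.2 to 52.5 CPM, those of Snhg5 10.8 to 21.7, those of Snhg3 4.02 to 12.8 and those of Snhg12 7.05 to 9.82. Gas5 was the highest in each of the 12 libraries, although its lowest control library without LPS (26 CPM per kilobase) lay below the highest Snhg5 library of that group (28.6). On the 1004 nt of its transcript, Snhg5 came next by group mean in all 4 groups. All annotated exons of Snhg5 merge to 1730 nt, which would lower its values, so this rank rests on the length used. With LPS and control siRNA the level of Snhg5 (14 ± 4.42 CPM per kilobase, SD, n = 3) was within the spread of that of Snhg3 (12.8 ± 5.92). With SF3a1 siRNA and LPS the level of Snhg5 (10.8 ± 3.46) was within that of Snhg12 (9.82 ± 2.61). With SF3a1 siRNA, Snhg3 had the lowest mean of the 4, at 4.02 ± 1.08 CPM per kilobase without LPS and 5.11 ± 2.28 with LPS. Snhg5 lies on chr9:88521050-88522929 (−), Snhg3 on chr4:132348014-132353686 (−) and Snhg12 on chr4:132308623-132311024 (+).

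**Figure D1:**
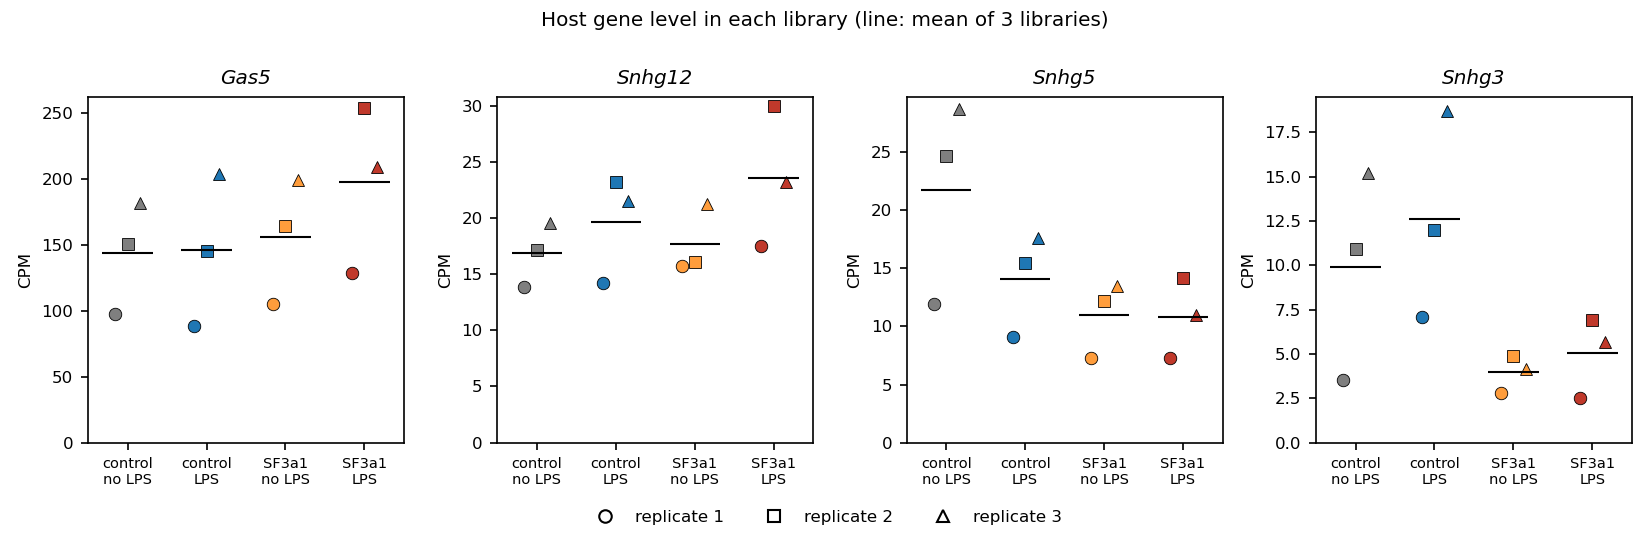
Level of each host gene in every library (y axis, CPM on TMM library sizes; x axis, the 4 groups; symbols, replicate numbers; lines, means of 3 libraries). Replicate 1 is the lowest point of its group for all 4 genes, and the Snhg3 points with SF3a1 siRNA and LPS lie below all 3 with control siRNA and LPS.

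One feature runs through all of these values. Replicate 1, made of 2 combined sequencing runs and the most deeply sequenced of each group, was the lowest library of its group in 16 of 16 sets of 4 genes and 4 groups. Over the 4 groups, Gas5 averaged 105 CPM in replicate 1, 179 in replicate 2 and 198 in replicate 3, and Snhg3 averaged 4.00, 8.66 and 10.9 CPM. Among all 14983 tested genes, 15.5% had replicate 1 lowest in all 4 groups and 16% had it highest. The shares moved with the length of merged exons. In the length class of Snhg3, under 1000 nt, 26.6% had it lowest and 7.61% highest, and in that of Snhg5, at least 1000 and under 2000 nt, 18.3% and 12.3%. In the class of Gas5 and Snhg12, at least 2000 and under 4000 nt, the order was the other way, at 14.6% lowest and 18.3% highest. Among 8 other noncoding snoRNA hosts 7 had replicate 1 lowest in all groups, as had 16 of 32 protein-coding hosts (50%) and 40 of 79 ribosomal protein genes (50.6%). The pattern enters the spread of every host gene, so the host gene tests below are also given with the replicate number as a block where that alters the call.

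With SF3a1 siRNA, Snhg3 was called lower with and without LPS and Snhg5 without LPS, calls that end on leaving out some single libraries, while Gas5 passed with LPS in the fit with the replicate block alone and Snhg12 in neither fit. Without LPS, 2 of 4 hosts were called lower and 0 higher at an adjusted p of 0.1 in edgeR's quasi-likelihood test, beside 33.8% of 14983 tested genes called in either direction, 13.7% called higher and 20.1% called lower. The fit with the replicate block also called 2 hosts, beside 47.1% of all tested genes. With LPS, 1 of 4 was called lower and 0 higher, beside 38.8% of all tested genes called, 18.4% higher and 20.4% lower. There the block changed the count to 3 of 4, with Snhg3 and Snhg5 lower and Gas5 higher, beside 50.9% of all tested genes. The median log2 change of the 4 hosts was -0.47 without LPS and -0.05 with LPS, beside -0.02 and -0.04 over all tested genes. The LPS comparison shares its control libraries with each of these. In these bulk libraries, fewer cells with an RNA and less of it per cell cannot be told apart.

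Snhg3 carries Snora73a and Snora73b, box H/ACA snoRNAs needed for ribosomal RNA processing. Its level with control siRNA without LPS was 3.55, 10.9 and 15.2 CPM in replicates 1 to 3, and with SF3a1 siRNA without LPS 2.81, 4.90 and 4.17 CPM. Replicate 1 of the control fell inside the range of the SF3a1 libraries, so the groups overlapped, although each SF3a1 library lay below the control library of its own number. The log2 fold change was -1.32 (SE 0.53, edgeR's quasi-likelihood test, adjusted p = 0.0834), and with the replicate block -1.13 (adjusted p = 0.00379). The call without the block was lost on leaving out any of 7 libraries. Those were replicates 2 (log2 fold change -1.15) and 3 (-0.76) of control siRNA without LPS, replicate 2 of control siRNA with LPS (-1.32), all 3 replicates of SF3a1 siRNA without LPS (-1.11, -1.50 and -1.36) and replicate 3 of SF3a1 siRNA with LPS (-1.32), with adjusted p of 0.105 to 0.369.

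With LPS, Snhg3 stood at 7.10, 12 and 18.7 CPM with control siRNA and at 2.54, 6.89 and 5.68 CPM with SF3a1 siRNA. All 3 SF3a1 libraries were below all 3 control libraries. The log2 fold change was -1.33 (SE 0.52, edgeR's quasi-likelihood test, adjusted p = 0.0700), or 0.397 times the control level, and -1.34 with the block (adjusted p = 8.99e-04). The call was lost without replicate 2 (-1.36) or 3 (-0.92) of control siRNA with LPS, or without replicate 1 (-1.0) or 3 (-1.43) of SF3a1 siRNA with LPS, at adjusted p of 0.118 to 0.252. Without all 4 replicate 1 libraries the changes were -1.52 without LPS (adjusted p = 0.00142) and -1.30 with LPS (adjusted p = 0.00251).

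Snhg3 overlaps Rcc1, the exchange factor of the GTPase Ran, on the same strand, and 3 of the 15 exon bins of Snhg3, with 135 of 986 nt, also hold exons of Rcc1. Rcc1 also fell, by 1.07 on the log2 scale without LPS (adjusted p = 7.57e-04) and by 0.81 with LPS (adjusted p = 0.00353, edgeR's quasi-likelihood test), and its groups did not overlap. In the bins that hold Snhg3 exon and no Rcc1 exon, the counts scaled to each library's total of bin counts were 6.26, 15.7 and 20.5 CPM with control siRNA without LPS and 5.09, 6.96 and 5.85 CPM with SF3a1 siRNA. With LPS they were 10.5 and 16.3 CPM in the 2 control libraries with bin counts and 4.36, 9.15 and 7.52 CPM with SF3a1 siRNA. As in the gene counts, the groups overlapped without LPS through control replicate 1 and lay apart with LPS. The part of Rcc1 reads in the Snhg3 gene counts was not tested.

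Snhg5, host of the C/D box snoRNAs Snord50a and Snord50b, had 11.9, 24.7 and 28.7 CPM in the control libraries without LPS and 7.29, 12.2 and 13.5 CPM in the SF3a1 libraries. The groups overlapped through control replicate 1, and in each of the 3 replicate numbers the SF3a1 library was lower. The log2 fold change was -0.99 (SE 0.37, edgeR's quasi-likelihood test, adjusted p = 0.0677), 0.502 times the control level, and -0.95 with the block (adjusted p = 4.53e-04). Leaving out replicate 2 (-0.81) or 3 (-0.65) of control siRNA without LPS, or replicate 1 (-0.76) or 2 (-1.06) of SF3a1 siRNA without LPS, ended the call, at adjusted p of 0.120 to 0.298. With LPS the Snhg5 values were 9.05, 15.5 and 17.6 CPM with control siRNA and 7.27, 14.2 and 11 CPM with SF3a1 siRNA, which overlap. The log2 fold change there was -0.37 (SE 0.37, adjusted p = 0.50), and with the block -0.37 at an adjusted p of 0.0823, a call that the fit without the block did not make. The difference between the SF3a1 effects with and without LPS was 0.62 for Snhg5 (SE 0.52, adjusted p = 0.755 in edgeR's quasi-likelihood test), so the effects were not shown to differ.

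Gas5 had 97.7, 151 and 182 CPM with control siRNA without LPS and 105, 164 and 199 CPM with SF3a1 siRNA without LPS. The groups overlapped along nearly their whole range, with each SF3a1 library slightly above the control of its number, and the log2 fold change was 0.12 (SE 0.34, adjusted p = 0.847). With LPS the values were 88.5, 145 and 204 CPM with control siRNA and 129, 254 and 209 CPM with SF3a1 siRNA. These groups also overlapped, and the log2 fold change of 0.44 (SE 0.34) missed the threshold in edgeR's quasi-likelihood test (adjusted p = 0.381). With the replicate block it was 0.47 (SE 0.13, adjusted p = 0.0128), one of 3 host calls of that fit with LPS, beside 50.9% of all tested genes called by it. Without replicate 1 of every group it was 0.41 (adjusted p = 0.116), which misses the threshold.

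Snhg12, host of Snora16a, Snora44, Snora61 and Snord99, gave no call in any comparison. It had 13.9, 17.2 and 19.6 CPM with control siRNA without LPS and 15.7, 16.1 and 21.3 CPM with SF3a1 siRNA without LPS. With LPS it had 14.2, 23.2 and 21.5 CPM with control siRNA and 17.5, 30 and 23.2 CPM with SF3a1 siRNA. The groups overlapped in every pair compared. The log2 fold changes with SF3a1 siRNA were 0.06 (SE 0.24, adjusted p = 0.894) and 0.26 (SE 0.24, adjusted p = 0.460) in edgeR's quasi-likelihood test, and the block made no call.

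**Figure D2:**
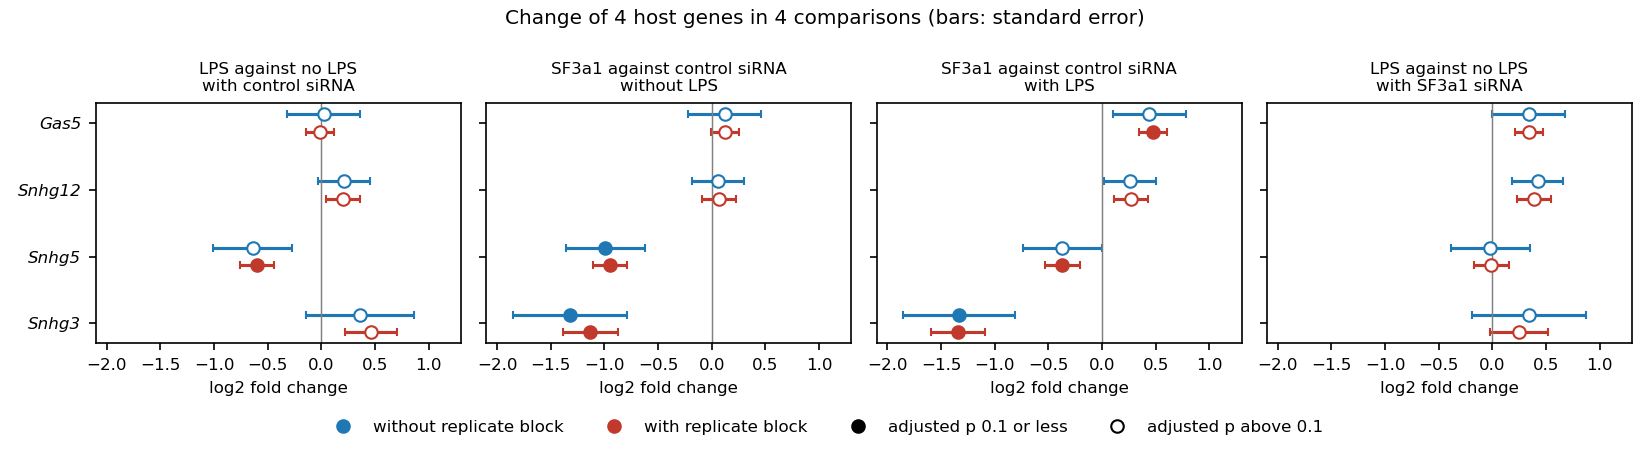
Log2 fold change of each host gene (x axis) in 4 comparisons, with standard errors as bars, in edgeR's quasi-likelihood test without (blue) and with (red) the replicate block. Filled points pass an adjusted p of 0.1: Snhg3 is filled in both fits in both SF3a1 comparisons, while Gas5 with SF3a1 siRNA and LPS is filled in the block fit alone.

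The next comparison asked whether LPS alone moved the hosts. With control siRNA, 0 of 4 hosts passed the test for LPS, beside 32.1% of all tested genes (13.8% higher, 18.3% lower), and the median host change was 0.12, beside -0.02 for all tested genes. At an unadjusted p under 0.05 the count was also 0, and DESeq2 called 0 as well. The closest was Snhg5, at -0.64 (SE 0.37, adjusted p = 0.249), which the block fit called at -0.60 (adjusted p = 0.00886, beside 43.9% of all tested genes), as did the fit without the replicate 1 libraries at -0.69 (adjusted p = 0.0138). Leaving out replicate 1 of control siRNA without LPS alone also gave a call, at -0.91 (adjusted p = 0.0837). Snhg3 changed by 0.36 (SE 0.50), Snhg12 by 0.21 (SE 0.24) and Gas5 by 0.02 (SE 0.34), with adjusted p of 0.603 to 0.975 in edgeR's quasi-likelihood test. With SF3a1 siRNA, LPS gave 0 of 4 calls beside 10.7% of all tested genes (6.60% higher, 4.06% lower, and 20.8% in the block fit, which also called 0 hosts), with log2 changes of 0.42 for Snhg12, 0.34 for Gas5 and Snhg3 and -0.02 for Snhg5. The interaction gave 0 of 4 calls beside 3.47% of all tested genes (1.54% higher, 1.94% lower, and 11.7% in the block fit, which also called 0 hosts). In both, 0 hosts had an unadjusted p under 0.05, and DESeq2 called 0.

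The snoRNA genes inside the hosts gave few counts in these libraries of polyadenylated RNA. Of 27 snoRNA genes inside the 7 hosts that have a row of counts, 20 were at 0 in every library (9 of 9 in Gas5, 8 of 8 in Snhg1 and 3 of 4 in Snhg12). In 25 of the 27, among them all 9 in Gas5, a host exon annotated in GENCODE vM21 overlaps the snoRNA. A read that fits both genes is left as ambiguous by the counting. The counting used an earlier Ensembl annotation, so this overlap need not hold there for every host. In it, Snhg1, Snhg6 and Snhg8 have no row under their IDs, and the bins of Snhg5 are joined with no snoRNA gene. In Gas5, whose deposited bins are joined with those of its snoRNA genes, a row at 0 is therefore no limit on the reads over these snoRNAs. The bin over Gm22357 in Gas5 held 708, 151 and 152 counts with control siRNA without LPS. Why the 8 rows in Snhg1 were at 0 was not tested. The 5 that passed the filter were Snora73b and Snora73a in Snhg3, Snord87 in Snhg6, Snora24 in Snhg8 and Snora16a in Snhg12.

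Snora73b, which no annotated Snhg3 exon overlaps, had the most counts of them, 1359 over the 12 libraries. With LPS its lowest, median and highest levels were 6.24, 6.99 and 7.63 CPM with control siRNA and 2.45, 3.71 and 4.72 CPM with SF3a1 siRNA. The groups lay apart, and the log2 fold change was -0.95 (SE 0.28, edgeR's quasi-likelihood test, adjusted p = 0.023), the 1 call among the 5 snoRNA genes over the 5 comparisons, beside 38.8% of all tested genes called in this one. Without LPS the levels were 4.20, 5.36 and 5.58 CPM against 2.34, 3.72 and 4.05 CPM, also apart, with a log2 fold change of -0.58 (adjusted p = 0.157). Snora73a, 466 counts in all, changed by -0.59 and -0.56 (adjusted p = 0.356 and 0.361). Of the snoRNAs in hosts with no row of their own, Snord87 changed by 0.77 and 0.92 and Snora24 by -1.47 and -0.29, none called, on 107 and 97 counts in all. Snora16a changed by -0.97 and -1.04 (adjusted p = 0.334 and 0.250).

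Exon bins resolve where along a host the reads fell. A bin is a stretch of a gene cut at every annotated exon edge, and a read is counted in every bin it touches, so neighbouring short bins share reads. Bin counts were at hand for 11 libraries, without replicate 3 of control siRNA with LPS. The main test of relative usage (edgeR's diffSpliceDGE) called 0 host bins in all 3 comparisons, beside 0.0801% of 153624 tested bins for LPS, 0.626% for the SF3a1 comparison without LPS and 0.492% for that with LPS. At an unadjusted p under 0.05 the Gas5 counts were 0, 8 and 5 of 69 tested bins, those of Snhg3 1, 0 and 0 of 11, those of Snhg5 0 of 5 in each, and those of Snhg12 2, 1 and 1 of 20, beside 1.97%, 3.39% and 3.99% of all tested bins. Many Gas5 bins share reads, and limma's voom fit called 0 host bins. With the replicate block, 10 Gas5 bins were called without LPS (5 higher, 5 lower) and 8 with LPS (3 higher, 5 lower), beside 1.38% and 1.17% of all tested bins, and 0 bins of the other hosts. For LPS the block fit called 0 host bins beside 0.186% of all tested bins. Outside Gas5, the bins of smallest p in edgeR's diffSpliceDGE included Snhg12 bin 10 with SF3a1 siRNA and LPS (-1.16, adjusted p = 0.847) and Snhg3 bin 27 for LPS (-1.26, adjusted p = 1.0).

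The Gas5 bins follow the exons and introns of its 12-exon transcript. Exon 4, 37 nt at chr1:161036208-161036244, took a smaller share of the exon bin counts in every SF3a1 library than in any control library. Its share was 9.45%, 11.4% and 10.5% of all Gas5 exon bin counts with control siRNA without LPS (10.5% ± 0.997, SD, n = 3). With SF3a1 siRNA without LPS it was 4.28%, 4.47% and 4.14% (4.30% ± 0.167, n = 3). The bin counts behind these shares were 682, 680 and 884 in the controls and 264, 292 and 247 with SF3a1 siRNA. With LPS the share was 9.95% and 10.0% with control siRNA, on 530 and 314 counts, and 3.81%, 3.71% and 3.94% with SF3a1 siRNA, on 365, 353 and 381 counts. The groups did not overlap, and replicate 1 was not the lowest library throughout.

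The relative usage of exon 4 (its bin 26) changed by -0.81 in the main fit in both SF3a1 comparisons (unadjusted p = 0.0109 and 0.0196, adjusted p = 0.680 and 0.869, edgeR's diffSpliceDGE). With the replicate block it changed by -0.77 (adjusted p = 2.21e-05) and -0.82 (adjusted p = 1.25e-04). The bin was singled out after its values were seen. Its neighbours moved less: by the longest bin of each exon, the log2 ratio of the mean shares was -0.61 and -0.81 for exon 3, -1.28 and -1.38 for exon 4, and -0.34 and -0.32 for exon 5, without and with LPS. Exon 7 gave -0.72 and -1.24. The groups of exons 3, 5 and 7 lay apart in both conditions, as did those of exon 4. Exons 6, 9 and 10, by contrast, took larger shares with SF3a1 siRNA, with ratios of 0.26 to 0.58, which in shares of 1 total must offset the smaller ones in part. Their groups lay apart, except that those of exon 9 overlapped without LPS (4.39 to 6.44% with control siRNA, 6.29 to 7.06% with SF3a1 siRNA).

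The first exon went the other way. Its 7-nt bin next to the first splice site (bin 13) took 1.79%, 0.690% and 0.641% of exon bin counts with control siRNA without LPS and 2.68%, 2.13% and 2.51% with SF3a1 siRNA. With LPS it took 1.84% and 0.956% with control siRNA and 3.06%, 2.33% and 2.32% with SF3a1 siRNA. The SF3a1 libraries were higher in both cases with no overlap. Relative usage changed by 1.09 without LPS in the main fit (adjusted p = 0.243) and by 1.04 with the block (adjusted p = 2.75e-06), and by 0.82 and 0.85 with LPS (adjusted p = 1.0 and 0.00872, edgeR's diffSpliceDGE). Bins 10 to 12 of exon 1, called by the block fit without LPS at 0.84 to 0.85, are 2 to 6 nt long and share reads with bin 13.

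**Figure D3:**
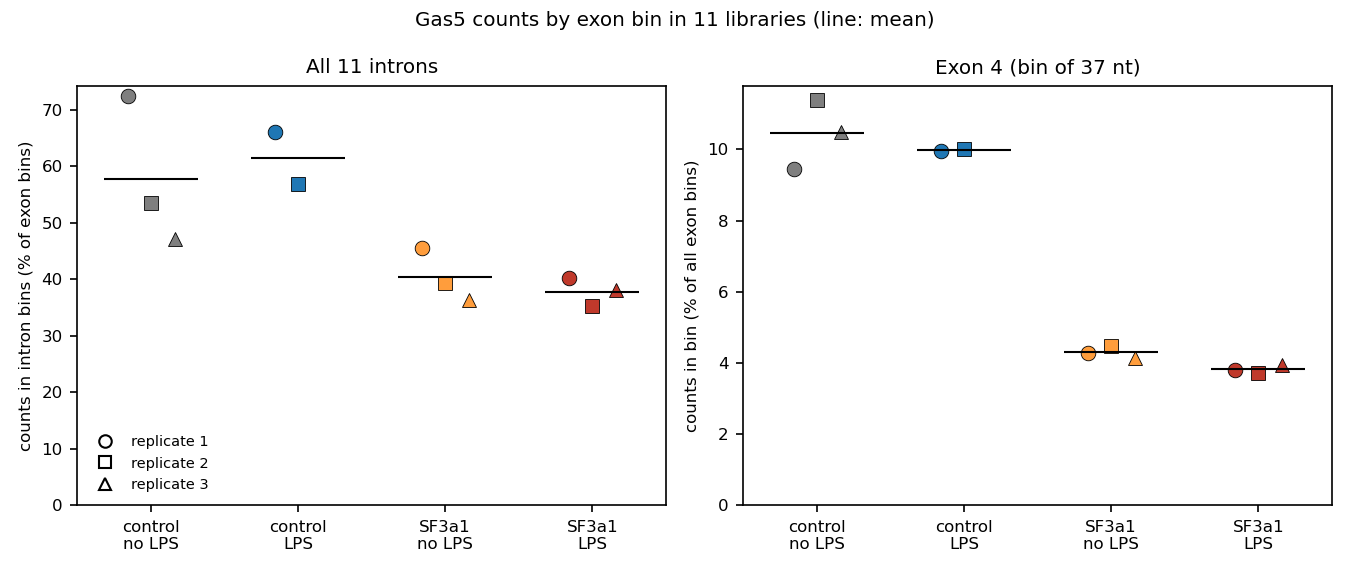
Left, counts in the Gas5 intron bins as a percent of its exon bin counts, and right, counts in the exon 4 bin as a percent of all exon bin counts (y axes), in each of 11 libraries by group (x axes; symbols, replicate numbers; lines, means). Exon 4 stands at 9.45 to 11.4% in the 5 control libraries and at 3.71 to 4.47% in the 6 SF3a1 libraries.

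Gas5 intron reads were a smaller share with SF3a1 siRNA. Summed over 11 introns, intron bins held 72.4%, 53.6% and 47.2% as many counts as exon bins with control siRNA without LPS, and 45.5%, 39.4% and 36.3% with SF3a1 siRNA without LPS. With LPS they held 66.1% and 56.9% with control siRNA and 40.2%, 35.2% and 38.1% with SF3a1 siRNA. All SF3a1 libraries lay below all control libraries in both conditions. The mean was 57.8% ± 13.1 (n = 3) with control siRNA and 40.4% ± 4.68 (n = 3) with SF3a1 siRNA without LPS, a difference of -17.3 percentage points. With LPS the means were 61.5% ± 6.54 (n = 2) and 37.8% ± 2.51 (n = 3), a difference of -23.7. The two-sided exact permutation p was 0.10 for each, the smallest that these group sizes can give, so neither can reach 0.05. LPS changed the share by 3.72 points with control siRNA (exact permutation p = 0.800). Without the bins that overlap snoRNA genes the SF3a1 differences were -12.1 and -19.6 points, and without intron 4 they were -11.9 and -15.4, alternatives chosen after the data had been seen. Leaving out replicate 1 of control siRNA without LPS gave -10 points without LPS, and leaving out any other single library gave -15.3 to -22.6 there. With LPS, leaving out single libraries gave -19 to -28.3, both ends from the 2 control libraries. Replicate 1 was the highest library of each group for this share.

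Introns 4, 6 and 7 were lower in every SF3a1 library than in any control library, in both conditions, as was intron 5. Intron 4 (304 nt) held counts equal to 12% of all exon bin counts with control siRNA without LPS and 6.50% with SF3a1 siRNA, and 13.8% and 5.62% with LPS. By library it held 17%, 10.2% and 8.69% against 8.37%, 5.46% and 5.67% without LPS, and 16.6% and 11.1% against 5.98%, 5.64% and 5.24% with LPS. The log2 ratios without and with LPS were -0.88 and -1.30 for intron 4, -0.97 and -1.26 for intron 6, -0.78 and -1.10 for intron 7 and -0.41 and -0.69 for intron 5. Without replicate 1 of the controls, but with that of SF3a1 siRNA kept, the ratio of intron 4 without LPS was -0.54 and that of intron 6 was -0.90. Intron 3, with -0.83 and -0.95, lay apart with LPS but overlapped without LPS, at 16.3%, 7.45% and 6.44% against 7.12%, 4.96% and 4.88%, and its ratio there was -0.30 without control replicate 1. Intron 8 (-0.22 and -0.44) and intron 9 (-0.49 and -0.80) also lay apart with LPS and overlapped without LPS. Intron 11, with -0.30 and -0.44, overlapped in both. Intron 1 was higher with SF3a1 siRNA in the mean, at 0.48 and 0.16, with overlapping libraries. Without replicate 1 of the controls, the intron 1 ratios were 0.82 without LPS and 0.37 with LPS. All ratios without control replicate 1 kept replicate 1 of SF3a1 siRNA, so they do not set equal replicate numbers against each other. The ratios were -0.15 and -0.04 for intron 2 and -0.32 and -0.08 for intron 10. Within intron 2 a 45-nt bin (bin 18) went the other way, at 0.610%, 0.740% and 0.475% of exon bin counts with control siRNA without LPS against 1.67%, 1.10% and 1.19% with SF3a1 siRNA, and at 0.957% and 0.701% against 1.33%, 1.17% and 1.23% with LPS. Its groups lay apart in both conditions, and it was the 1 intron bin that the block fit called higher, without LPS alone (0.90, adjusted p = 0.00302, against 1.0 without the block, edgeR's diffSpliceDGE). The block fit called intron 4 lower in both conditions (-0.47 and -0.65, adjusted p = 0.0464 and 0.00590), as it did a 95-nt bin of intron 6 (-0.78 and -0.80, adjusted p = 0.0124 and 0.0541), and the fit without the block called neither. Intron 6 holds Snord78, whose bin was called lower without LPS in the block fit (-0.78, adjusted p = 0.0468) and not in the fit without it (adjusted p = 1.0, edgeR's diffSpliceDGE), with groups apart. The bin of the snoRNA gene Gm22357 in intron 3 was also called by the block fit alone (-0.66, adjusted p = 0.00956, against 1.0), but its groups overlapped and 1 control library stood far above the rest, with 708 counts beside 151 and 152.

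**Figure D4:**
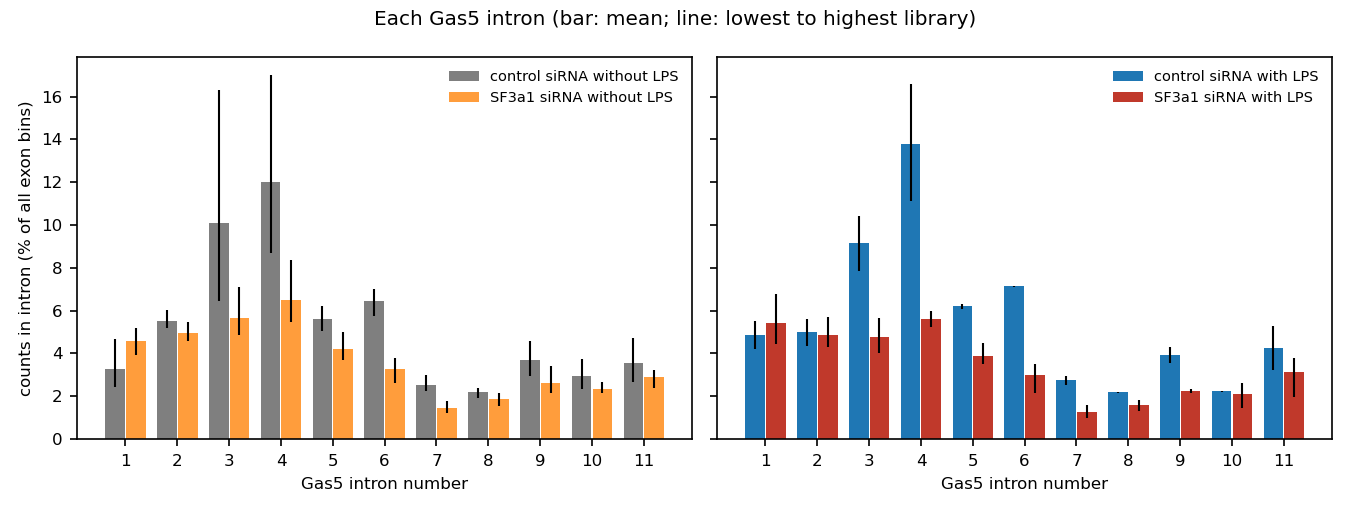
Counts in each of the 11 Gas5 introns as a percent of all exon bin counts (y axis), without LPS (left) and with LPS (right). Bars are group means and lines run from the lowest to the highest library: introns 4, 6 and 7 are lower with SF3a1 siRNA with no overlap, while intron 1 is not and intron 3 overlaps without LPS.

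The 3' splice sites of these introns are shown because SF3a1 acts near them, with the 3 introns of lowest and the 3 of highest mean log2 ratio, and intron 3, which ends at exon 4. Each run holds the last 26 bases of the intron and 4 bases of the next exon on the plus strand, read from GENCODE vM21 transcripts that keep the intron (GRCm38). Capitals mark the 13 bases that stop 4 bases short of the exon.
intron 3 (chr1:161036182-161036211): tttacataaAGATTCCCCCCCCccaggact
intron 4 (chr1:161036523-161036552): cagctttaaCTATTTGTTTGTTgtaggtgc
intron 6 (chr1:161037098-161037127): taagaggtaTTTTCTTTTAATTctagttaa
intron 7 (chr1:161037262-161037291): taaatggtgCCTTAAATTTTTTtcaggtac
intron 1 (chr1:161035726-161035755): ctactaaagATTAACATTTTTCttaggaat
intron 2 (chr1:161035957-161035986): tgactgttcACATCTCTTATTTccagttct
intron 10 (chr1:161038199-161038228): aagtaagtcAGTCTTTGTTTTCttagggct
All 11 Gas5 introns end in AG, and their 13-base tracts hold 8 to 11 pyrimidines. The introns with the lowest ratios held 10, 11 and 10 pyrimidines (introns 4, 6 and 7). Those with the highest held 9, 10 and 10 (introns 1, 2 and 10), and the difference was not tested.

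The junction from exon 4 to intron 4 is also shown, because the share of exon 4 was smaller with SF3a1 siRNA. Each run holds 10 bases of exon and 20 of intron, with the first 6 intron bases in capitals. The exon 4 junction is set beside those of exon 3, whose ratio was nearer 0, and of exon 6, whose share was larger.
exon 4 to intron 4 (chr1:161036235-161036264): cgagcgcaatGTAAGCaattttgtgtgtgc
exon 3 to intron 3 (chr1:161036005-161036034): ggcttacgagGTGAGTactgaatagtaatg
exon 6 to intron 6 (chr1:161036843-161036872): agtttgaaagGTAAGTattgaaaaacactt
These letters describe the junctions and were not tested against the usage.

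Among the libraries, the hosts fell into pairs. The log2 CPM of Gas5 and Snhg12 correlated at 0.87 and that of Snhg3 and Snhg5 at 0.81 over 12 libraries, while the other 4 pairs gave 0.32 to 0.49. All points share the low replicate 1 libraries, and no p is given. The tested genes whose pattern was most like that of Gas5 were Rpl22, Cwc15 and Uqcrh (r of 0.98, 0.98 and 0.97). For Snhg3 they were Mrpl13, Srp19 and Cct8 (0.98, 0.98 and 0.97), for Snhg5 Cfap20, Exosc7 and Mir17hg (0.97, 0.97 and 0.96), and for Snhg12 Atox1, Pinx1 and 1110038B12Rik (0.94, 0.94 and 0.93).

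The other noncoding snoRNA hosts went in both directions. Of 16 listed, 10 had a row and 8 were tested, with 3 called higher and 1 lower with SF3a1 siRNA in each condition, 50% beside 33.8% and 38.8% of all tested genes, at a median log2 change of 0.01 without LPS and 0.10 with LPS. Snhg16 rose most clearly, from 14.7 ± 3.89 to 35.4 ± 3.51 CPM without LPS and from 14.6 ± 3.69 to 48.8 ± 7.12 CPM with LPS (SD, n = 3), log2 changes of 1.27 (edgeR's quasi-likelihood test, adjusted p = 0.00153) and 1.75 (adjusted p = 1.82e-04). Its groups did not overlap. Snhg17 rose by 0.67 and 0.66 (adjusted p = 0.0239 and 0.0238) and Snhg15 by 0.67 without LPS (adjusted p = 0.0758), a call lost without replicate 1 of the control (0.66) or replicate 2 (0.62) or 3 (0.57) of SF3a1 siRNA without LPS. With LPS, Snhg29 fell by 0.56 (adjusted p = 0.0386), a call lost without replicate 3 of control siRNA (-0.38) or replicate 1 (-0.49) or 3 (-0.52) of SF3a1 siRNA, all with LPS. For LPS alone, Zfas1 rose by 0.78 (adjusted p = 0.0402), the 1 call of 8 (beside 32.1% of all tested genes), lost without replicate 1 of the controls without LPS (0.66) or replicate 3 of those with LPS (0.54). With the block, 7 of 8 were called with SF3a1 siRNA without LPS (4 higher) and 5 of 8 with LPS (3 higher), beside 47.1% and 50.9% of all tested genes. For LPS alone the block called 3 of 8, all higher and among them Snhg29 (0.35 and adjusted p = 0.199 without the block, 0.0718 with it), beside 43.9% of all tested genes.

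Hosts that code for protein, and the ribosomal protein genes that share their pyrimidine start, were examined next. Of 32 protein-coding hosts tested, 4 were called higher and 1 lower with SF3a1 siRNA in each condition (15.6%, beside 33.8% and 38.8% of all tested genes), at median changes of 0.17 and 0.08. For LPS alone 0 of 32 were called by edgeR's quasi-likelihood test, 0 at an unadjusted p under 0.05 and 2 with the block, beside 32.1% of all tested genes without the block and 43.9% with it. Eif4a2, a translation initiation helicase, rose by 0.91 and 0.94 and Ppan, a ribosome assembly factor, by 0.71 and 1.04, with adjusted p of 2.09e-04 to 0.00264 in edgeR's quasi-likelihood test. Dkc1, the pseudouridine synthase of box H/ACA snoRNPs, fell by 0.51 without LPS (adjusted p = 0.0414), a call lost without replicate 2 (-0.35) or 3 (-0.38) of the controls or replicate 1 or 3 (both -0.49) of SF3a1 siRNA. Of 79 ribosomal protein genes, 5 were called higher without LPS and 4 with LPS and 0 lower, at medians of 0.17 and 0.12, led by Fau (1.07 and 0.78) and Rpl36a (1.08 and 1.14). With the block, 13 of 32 protein-coding hosts were called in each condition, 10 of them higher, and 22 and 19 of 79 ribosomal protein genes, beside 47.1% and 50.9% of all tested genes.

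**Figure D5:**
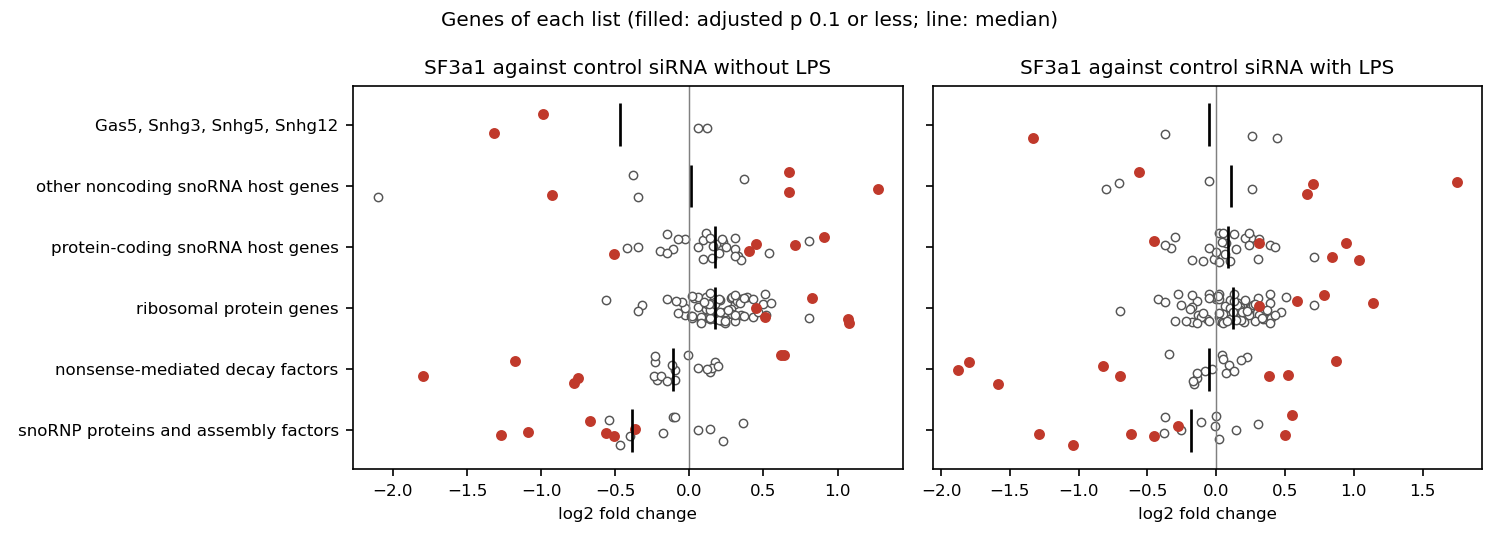
Log2 fold change with SF3a1 siRNA (x axis) of every tested gene in 6 lists (y axis), without LPS (left) and with LPS (right), with calls at an adjusted p of 0.1 filled and list medians as lines. Snhg3 and Snhg5 lie left of the median of the ribosomal protein genes without LPS, where Upf3b at -1.80 is the lowest of the decay factors.

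Decay and snoRNA assembly genes were examined because they act on the spliced and excised products of these hosts. Of 22 nonsense-mediated decay factors, 2 were called higher and 4 lower with SF3a1 siRNA without LPS, and 3 higher and 5 lower with LPS, 27.3% and 36.4% of the list beside 33.8% and 38.8% of all tested genes. Upf3b, which links the exon junction complex to the Upf proteins, fell by 1.80 in both conditions, from 31.7 ± 4.58 to 9.07 ± 1.31 CPM and from 24.7 ± 3.82 to 7.06 ± 1.04 CPM (adjusted p = 7.10e-05 and 5.78e-05). Its paralogue Upf3a was also called lower without and with LPS (-0.75 and -0.70, adjusted p = 0.00223 and 0.00291, edgeR's quasi-likelihood test). So were the exonuclease gene Xrn1 (-0.78 and -1.88) and Nbas (-1.18 and -1.59). Smg8 was called higher in both (0.64 and 0.52). The block called 6 and 9 of 22, beside 47.1% and 50.9% of all tested genes. For LPS alone, 7 decay factors rose and 2 fell (40.9%, beside 32.1% of all tested genes, and 9 of 22 with the block), among the higher ones Magohb (1.59) and the decapping enzyme Dcp2 (1.01).

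The 6 protein-coding decay targets are also stress genes. With LPS and control siRNA 5 rose and 1 fell, led by Gadd45b (4.20) and Gadd45a (4.57), with Atf3 at 2.66, beside 32.1% of all tested genes called. With SF3a1 siRNA without LPS 3 rose, among them Gadd45a (1.84) and Gadd45b (1.39), and 2 fell, among them Tbl2 (-0.83), while with LPS 1 of 6, Atf3, was called, lower by 2.43. All tested genes gave 33.8% and 38.8%, and the block called 6 and 4 of 6, beside 47.1% and 50.9%. Of 16 snoRNP proteins and assembly factors, 0 rose and 6 fell without LPS and 2 rose and 5 fell with LPS, 37.5% and 43.8% of the list, near the 33.8% and 38.8% of all tested genes called, and the block called 10 of 16 in each, beside 47.1% and 50.9%. Pih1d1 (-1.09 and -1.04) and Znhit3 (-1.27 and -1.29), both parts of the machinery that assembles box C/D snoRNPs, fell in both, with adjusted p of 7.40e-04 to 0.00221 in edgeR's quasi-likelihood test. Naf1, an assembly factor of H/ACA particles, rose by 0.55 with LPS (adjusted p = 0.0496), a call lost without replicate 1 of the controls (0.40) or replicate 3 of SF3a1 siRNA (0.44).

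Long noncoding genes that hold no listed snoRNA gave 10 tested of 15 listed. Without LPS 2 rose and 5 fell with SF3a1 siRNA, 70.0% called beside 33.8% of all tested genes, and with LPS 0 of 10 passed, where the block called 4, beside 38.8% of all tested genes without and 50.9% with the block. Mir22hg, the host of a microRNA, rose by 1.46 (adjusted p = 2.55e-04), Dleu2 fell by 1.85 (adjusted p = 0.00357) and Oip5os1 fell by 0.65 (adjusted p = 0.00541) in edgeR's quasi-likelihood test. For LPS alone, Mir22hg rose by 1.79, Neat1 fell by 1.29 and Oip5os1 fell by 0.92. Of the 9 macrophage markers, 2 rose with SF3a1 siRNA without LPS, and 2 rose and 3 fell with LPS (22.2% and 55.6%, beside 33.8% and 38.8% of all tested genes). The block called 4 and 8 of 9, beside 47.1% and 50.9%. Their part in the host gene results was not tested.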

How the data were processed

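RNA of 12 cultures was sequenced from one end on an Ion Proton, and the labels gave each library's group. The authors aligned reads to mm10 with GSNAP, kept unique alignments, and made the deposited counts per gene with htseq-count of HTSeq and per exon bin with DEXSeq's script, not normalized. Strand use in counting is not given in the sources used here, so reads of antisense genes and hosts cannot be told apart. Reads assigned to no annotated feature were 17.8 to 27.2% and ambiguous reads 0.431 to 0.530% of each library, and both were left out. Whether the reads with no feature lay in introns or between genes is not given. Without LPS, reads with no feature were 27.2%, 21.6% and 20.8% with SF3a1 siRNA, above the 18.2%, 19.6% and 17.8% with control siRNA. With LPS these groups overlapped. The part of this difference in the host gene results was not tested.

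Gene counts were fitted with edgeR 4.0.16 (R 4.3.3, limma 3.58.1) by quasi-likelihood with TMM over 12 libraries after filterByExpr, without a block, and adjusted by Benjamini-Hochberg over 14983 genes at 0.1. Bins were tested with diffSpliceDGE over 153624 bins in 11 libraries. CPM use TMM library sizes and log2 CPM a prior count of 2. DESeq2 1.42.0 and other scalings, filters and left-out libraries were alternatives. Bin positions were rebuilt from GENCODE vM21, matching the deposited number of bins for Gas5 and Snhg3 from all transcripts and for Snhg5 from 1 transcript, while those of Snhg12 were not placed. The steps were tested on simulated counts with known changes, which did not hold the replicate 1 pattern.

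Same-numbered libraries deviated together (r of 0.143 to 0.600 for all 18 pairs, against -0.523 to 0.345 for 36 other pairs), so the replicate numbers pair the libraries, a link the labels do not explain. Members, lists and tests were chosen with earlier results of these data known. Named are all members, up to 3 genes per list and comparison with the smallest adjusted p, otherwise the most abundant, and bins by the smallest p. Other names, such as Gas5 exon 4, its introns and the Gas5 bins called with the block, were chosen after their values were seen.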

Additional observations from a re-analysis of the deposited data

Results flagged for a closer look

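Outside the hosts, 5 listed genes had SF3a1 effects that differed between LPS and no LPS in edgeR's quasi-likelihood interaction test. They were 1 of 22 decay factors, 1 of 6 decay targets, 1 of 10 other long noncoding genes and 2 of 9 macrophage markers tested, beside 3.47% of all tested genes. The lists of other noncoding hosts (8 tested), protein-coding hosts (32), ribosomal protein genes (79) and snoRNP genes (16) held none of them. The differences (effect with LPS minus effect without, log2) were 0.99 for Dhx34 (adjusted p = 0.0903), a helicase of nonsense-mediated decay at 65.5 ± 11 CPM with SF3a1 siRNA without LPS and 115 ± 29.7 CPM with LPS, and -2.27 for the decay target Gadd45a (adjusted p = 0.0297), whose control level rose from 0.325 ± 0.144 to 7.61 ± 1.44 CPM with LPS. They were -1.06 for Mir22hg (adjusted p = 0.0730), -2.83 for the Fc receptor gene Fcgr1 (adjusted p = 0.00149), at 456 ± 96.4 CPM with control siRNA and LPS and 49.5 ± 8.58 CPM with SF3a1 siRNA and LPS, and -1.13 for Mpeg1 (adjusted p = 0.0772), each on 3 libraries per group (mean ± SD). All 5 kept an adjusted p under 0.1 with the replicate block. The calls of Dhx34, Mpeg1 and Mir22hg were lost on leaving out 10, 10 and 11 of the 12 libraries singly, and those of Gadd45a and Fcgr1 on leaving out 0. These genes came from the lists and were not compared with the host genes, and the causes were not tested.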

How the results depend on the processing

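The host calls moved with several settings. For LPS with control siRNA, where 0 hosts were called, 1 (Snhg5) was called with no filter on low counts, with the replicate block and without replicate 1 in every group, and 0 to 1 when single libraries were left out. For SF3a1 siRNA without LPS, with 2 called, upper quartile scaling gave 1 and left-out libraries 0 to 2. For SF3a1 siRNA with LPS, with 1 called, the block gave 3 and left-out libraries 0 to 1. The calls of the snoRNA genes, 1 at first, were 5 without replicate 1 in every group and 1 to 2 without single libraries. Host bins, 0 called, were 10 and 8 with the replicate block for SF3a1 siRNA without and with LPS, and 0 without any single library. The block changed no other host call. DESeq2 called the same 3 host and comparison pairs as edgeR.

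Signs turned for changes that did not pass the test. Gas5 for LPS with control siRNA (0.02) was -0.00 with no filter, -0.01 with the block and -0.30 to 0.28 without single libraries. Without single libraries, Gas5 with SF3a1 siRNA without LPS ranged over -0.09 to 0.42, Snhg12 there over -0.09 to 0.27 and its interaction over -0.01 to 0.38, Snhg3 for LPS (0.36) over -0.05 to 0.84, and Snhg5 for LPS with SF3a1 siRNA over -0.26 to 0.21. The Snhg3 interaction (-0.01) was 0.00 with no filter, 0.21 without replicate 1 in every group and -0.53 to 0.39 without single libraries. Neat1 with SF3a1 siRNA and LPS (-0.02) was 0.00 with the block, 0.03 in a fit of the 2 groups alone, 0.22 without replicate 1 in every group and -0.24 to 0.18 without single libraries. Rpl4 for LPS ranged over -0.03 to 0.10 and Sf3a1 for LPS with SF3a1 siRNA over -0.02 to 0.38. The LPS difference in the Gas5 intron share, 3.72 percentage points, was -1.55 without replicate 3 of control siRNA without LPS and -0.903 without replicate 1 of control siRNA with LPS. The cause of these moves was not tested.

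Over all genes, the interaction count of 520 was 919 with DESeq2, 930 with no filter, 1756 with the block, 1012 without replicate 1 in every group and 273 to 711 without single libraries. LPS with SF3a1 siRNA (1598) gave 3115 with the block and 1050 to 2005 without single libraries. Bins called (123, 961 and 756) were 285, 2113 and 1793 with the block and 49 to 158, 527 to 1131 and 101 to 888 without single libraries. Snhg3 rests on 56 to 357 counts a library, the lowest mean CPM of the 4 hosts.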
